A study of Mus musculus with 9 samples.

Results

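The genes described here are 10 genes for acute phase proteins or for proteins usually studied with them: Saa1, Saa2, Saa3, Lrg1, Lcn2, Hp, Lbp, Cp, Serpina3n and Steap4. They are 10 of the 19938 genes that had a probe set naming a single gene on the arrays. The 10 genes were chosen by name, and the choice was made with the measured differences between the lines known, from the same 9 arrays that are described here. Their fold changes are therefore given as a description, without p-values, and none of the differences among the lines is an independent test of the group. Each of the 10 genes had exactly 1 probe set that named it alone and 0 that named it together with another gene.

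The series compared 3 lines of mouse mammary carcinoma cells on 1-colour whole-transcript arrays, with 3 arrays per line. The DR500 cells are 4T1 cells that survived doxorubicin, an anthracycline, raised in steps to 500 ng/ml (the labels' treatment protocol and the study's methods name doxorubicin, whereas a treatment field names methotrexate). The MR20 cells are 4T1 cells that survived methotrexate, an antifolate. The MR20 labels give a further 2 weeks in drug-free medium before the RNA was taken, and the study's methods give this recovery after selection without limiting it to MR20. For MR20 the dose is given as 20 in units that differ between the labels and the study. The 4T1 cells are the untreated parental line, which forms triple-negative mammary tumors in BALB/c mice. Both selected lines were surviving cells collected from visible colonies. The arrays of a line came from triplicate cultures or wells, so the errors measure the spread between these wells. The DR500 labels name a 4T1 culture of their own (WTR-), which was not analysed here, and no array batch is given, so line and batch cannot be told apart for DR500. In an exact permutation test, 3 arrays against 3 could not reach a two-sided p below 0.1. The median of all probe sets was 6.24 to 6.38 on every array.

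Acute phase proteins are plasma proteins whose production rises in inflammation, mainly in hepatocytes but also in epithelial cells, macrophages and tumor cells. Interleukin 6 and related cytokines induce many of them through the receptor subunit gp130 and the transcription factor STAT3, and interleukin 1 and tumor necrosis factor act through NF-kappaB, with C/EBP factors binding many of the promoters. The proteins carry lipids (serum amyloid A), sequester iron-loaded siderophores, haemoglobin and copper (lipocalin 2, haptoglobin, ceruloplasmin), present bacterial lipopolysaccharide to its receptor (Lbp) or inhibit proteases (Serpina3n).

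The genes lie at 8 places in the mouse genome (assembly GRCm38.p6). Saa3 (chr7:46711998-46719615), Saa1 (chr7:46740497-46743181) and Saa2 (chr7:46751833-46754313) belong to a cluster of 4 Saa genes that spans 42.3 kb. Lcn2 (chr2:32384637-32387739) and Lbp (chr2:158306493-158332852) share a chromosome without being neighbours. The others are Cp at chr3:19956933-20009750, Steap4 at chr5:7960472-7982213, Hp at chr8:109575128-109579172, Serpina3n at chr12:104406646-104414334 and Lrg1 at chr17:56119678-56121946.

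RefSeq promoter windows of the GRCm38.p6 assembly were found for 8 of the 10 genes, Hp and Lbp being the other two. The windows were searched on both strands for the C/EBP motif TTGCNNAA, the STAT motif TTCNNNGAA and the NF-kappaB consensus, with N for any base, and no 2 matches overlapped in a member. The 250 bases before the annotated start are shown for Steap4 (chr5:7960222-7960471, plus strand), which held all 3 motifs, for Saa3 (chr7:46715677-46715926, minus strand), Saa2 (chr7:46751583-46751832, plus strand) and Saa1 (chr7:46742981-46743230, minus strand), because they lie in one gene cluster and Saa1 and Saa2 are close copies, and for Lrg1 (chr17:56121947-56122196, minus strand), whose fold change was similar to that of Steap4 and Saa2 but whose window held none of the motifs. For Saa1 and Saa3 the table's start lies inside the span of the gene. Capitals mark the motif matches.
Steap4: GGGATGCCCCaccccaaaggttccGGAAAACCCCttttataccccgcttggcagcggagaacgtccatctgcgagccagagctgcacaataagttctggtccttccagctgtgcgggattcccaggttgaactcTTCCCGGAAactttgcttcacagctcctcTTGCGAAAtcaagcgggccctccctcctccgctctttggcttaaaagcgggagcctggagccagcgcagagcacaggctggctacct
Saa3: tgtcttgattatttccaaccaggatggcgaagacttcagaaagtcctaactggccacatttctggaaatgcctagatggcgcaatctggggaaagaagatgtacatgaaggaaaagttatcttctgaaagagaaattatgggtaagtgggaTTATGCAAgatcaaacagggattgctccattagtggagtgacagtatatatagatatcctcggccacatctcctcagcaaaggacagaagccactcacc
Saa2: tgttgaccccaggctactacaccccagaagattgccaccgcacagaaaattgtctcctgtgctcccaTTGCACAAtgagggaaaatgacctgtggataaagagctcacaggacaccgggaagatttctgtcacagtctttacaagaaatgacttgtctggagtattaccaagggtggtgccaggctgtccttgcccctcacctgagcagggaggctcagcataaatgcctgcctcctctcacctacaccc
Saa1: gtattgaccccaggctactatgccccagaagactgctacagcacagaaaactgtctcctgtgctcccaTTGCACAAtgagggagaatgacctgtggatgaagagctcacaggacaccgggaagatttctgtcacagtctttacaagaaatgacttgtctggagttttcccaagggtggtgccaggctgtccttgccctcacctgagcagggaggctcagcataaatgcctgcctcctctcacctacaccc
Lrg1: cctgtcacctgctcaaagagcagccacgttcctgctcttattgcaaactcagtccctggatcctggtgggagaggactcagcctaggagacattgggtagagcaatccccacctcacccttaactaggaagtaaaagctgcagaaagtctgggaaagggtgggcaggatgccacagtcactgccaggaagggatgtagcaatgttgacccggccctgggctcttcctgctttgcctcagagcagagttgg

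A C/EBP match was found in the windows of 6 of the 8 genes (Saa1, Saa2, Saa3, Lcn2, Cp and Steap4), against 10.8% of 32851 mouse promoter windows of the same length. A gene was counted if any of its windows held a match, whereas the share is per window. For Cp, the window from chr3:19956999 held the match and that from chr3:19956804 held none of the motifs. In Saa2 it lay 183 to 176 bases before the start and in Saa1 182 to 175 bases before it, with the same letters TTGCACAA in both. The Saa3 match lay 99 to 92 bases before the start, and that of Steap4 87 to 80 bases before it. Steap4 was the only gene of the 8 with a STAT match (116 to 108 bases before the start, and in 8.3% of all windows) or an NF-kappaB match (250 to 241 and 226 to 217 bases before the start, and in 8.46% of all windows). Neither the Lrg1 nor the Serpina3n window held any of these letters. Aligned over their 300-base windows, Saa1 and Saa2 were identical at 287 of 299 aligned bases (96%), with 2 gap bases. Saa1 and Saa3 were identical at 78% of 246 aligned bases, with 108 gap bases, and Saa2 and Saa3 at 74.6% of 252 aligned bases, with 96 gap bases. The motif matches describe letters in a sequence, and whether any factor was bound was not measured.

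The parental signal was low for most of the genes. As a measure of background, 1190 olfactory and vomeronasal receptor genes were used, which carcinoma cells are not known to need. The 95th percentile of their line means was 5.66 in DR500, 5.55 in MR20 and 5.56 in 4T1 on the log2 scale. In DR500, 8 of the 10 genes had a line mean above that level, against 6 in MR20 and 6 in 4T1. Those at or under it in 4T1 were Saa1, Saa2, Hp and Serpina3n. Lrg1, with a 4T1 mean of 5.70, and Lbp, with 5.74, lay just above it. Only Lcn2 (13.30) and Cp (11.93) exceeded all 1190 receptor genes in 4T1. Probe sets differ in sensitivity, so these levels do not order the genes among themselves. A fold change against a level near background is also held down by the background, which makes the folds of Saa2, Lrg1 and Lbp hard to read as ratios of transcripts.

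The values of each array are plotted gene by gene with the level of the receptor genes.

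**Figure D1:**
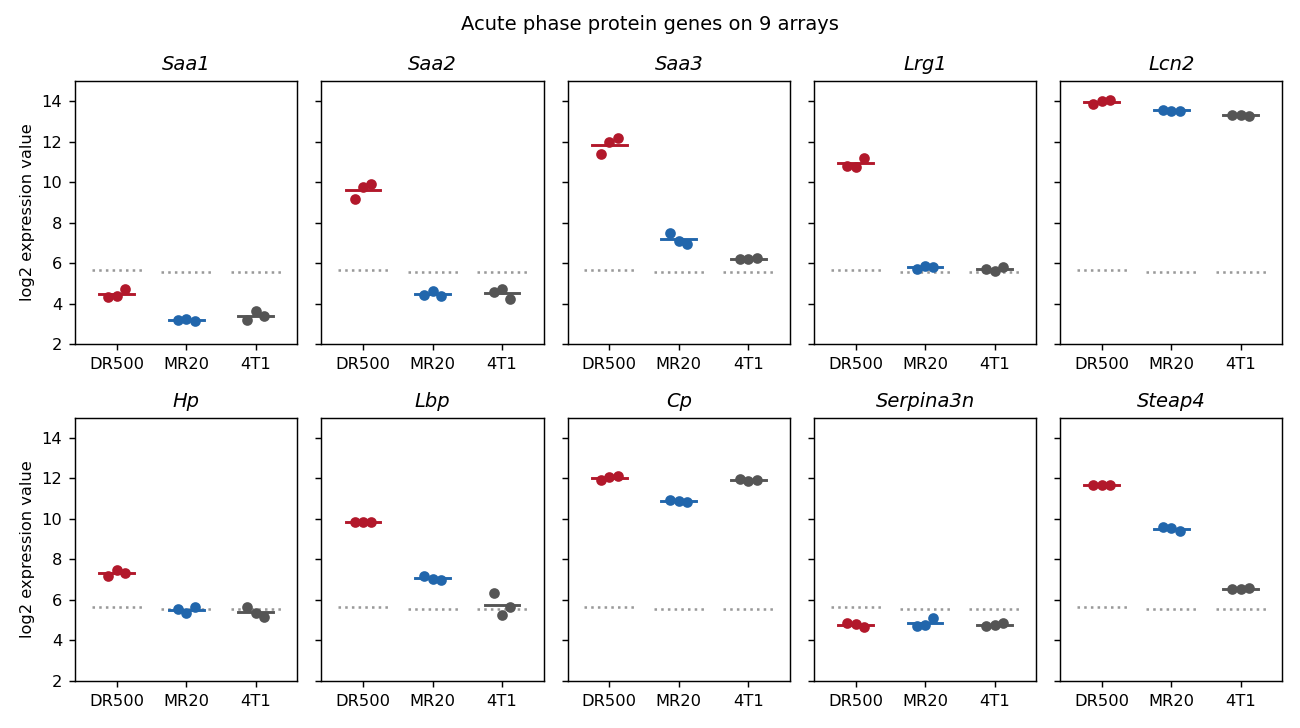
Log2 expression values of the 10 acute phase protein genes on each array of DR500, MR20 and 4T1 (points, 3 arrays per line), with the line mean (solid bar) and the 95th percentile of 1190 receptor genes in that line (dotted bar, 5.55 to 5.66). Saa2, Saa3, Lrg1, Lbp, Hp and Steap4 stand far above the other lines in DR500, Steap4 is intermediate in MR20, Lcn2 and Cp are bright in every line, and Saa1 and Serpina3n stay under the dotted bars.

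Saa3, the serum amyloid A that mouse macrophages and epithelial cells make, had log2 values of 11.39, 11.99 and 12.19 on the DR500 arrays, 7.50, 7.10 and 6.96 on the MR20 arrays and 6.21, 6.20 and 6.28 on the 4T1 arrays. All DR500 values lay above all MR20 values, which in turn lay above all 4T1 values. The change in DR500 was 5.62 on the log2 scale (standard error 0.19, a 49.3-fold difference), and in MR20 it was 0.96 (standard error 0.19, 1.94-fold). Among all 19938 genes, Saa3 had the second-largest rise in DR500. Saa2, an acute phase apolipoprotein of high density lipoprotein, had 9.16, 9.75 and 9.93 in DR500, 4.41, 4.61 and 4.39 in MR20 and 4.59, 4.71 and 4.23 in 4T1. Here MR20 and 4T1 overlapped fully, and both lay among the receptor genes. Saa2 rose by 5.10 in DR500 (standard error 0.19, 34.3-fold), and its difference in MR20 was -0.04 (standard error 0.19). With values under the receptor level set to that level, the rise in DR500 was 4.02.

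Saa1, the close copy of Saa2, had 4.36, 4.37 and 4.73 in DR500, 3.21, 3.22 and 3.16 in MR20 and 3.20, 3.64 and 3.42 in 4T1. Its DR500 arrays were above all others, by 1.07 over 4T1 (standard error 0.12, 2.09-fold), yet even there the mean of 4.48 was under the receptor level. Because the 2 genes are near-identical, hybridization of transcripts of one to probes of the other cannot be told from the signal, and the division of signal between Saa1 and Saa2 is uncertain. Saa4, the remaining gene of the cluster, had differences of 0.17 in DR500 and 0.06 in MR20 against 4T1, neither of which was called.

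Lrg1, a secreted leucine-rich glycoprotein that modulates signaling by transforming growth factor beta, had 10.82, 10.77 and 11.19 in DR500, 5.72, 5.88 and 5.80 in MR20 and 5.71, 5.61 and 5.79 in 4T1. MR20 overlapped 4T1 and DR500 stood apart, with a gap far wider than the range of any line. The change was 5.23 in DR500 (standard error 0.11, 37.4-fold) and 0.10 in MR20 (standard error 0.11). Lbp, the lipopolysaccharide-binding protein, had 9.84, 9.85 and 9.86 in DR500, 7.19, 7.03 and 6.97 in MR20 and 6.34, 5.24 and 5.64 in 4T1. The lines did not overlap, but the 4T1 arrays of Lbp spread over 1.10, wider than any other gene of the group in any line. Lbp rose by 4.12 in DR500 (standard error 0.21, 17.3-fold) and by 1.33 in MR20 (standard error 0.21, 2.51-fold).

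Steap4, a metalloreductase of iron and copper in the plasma membrane and endosomes, was the gene of the group most changed in MR20. It had 11.66, 11.69 and 11.68 in DR500, 9.61, 9.54 and 9.40 in MR20 and 6.53, 6.54 and 6.57 in 4T1. The lines were separated in steps, with a difference of 2.97 between MR20 and 4T1 (standard error 0.06, 7.84-fold) and one of 2.16 between DR500 and MR20 (standard error 0.06, 4.46-fold). Steap4 was the only one of the 9 genes higher in DR500 than in MR20 for which the difference between MR20 and 4T1 was the larger of these. Against 4T1 the DR500 value was higher by 5.13 (standard error 0.06, 35.0-fold). Hp, which encodes haptoglobin, had 7.18, 7.49 and 7.35 in DR500, 5.56, 5.35 and 5.65 in MR20 and 5.65, 5.37 and 5.16 in 4T1. It rose by 1.94 in DR500 (standard error 0.13, 3.85-fold), while MR20 and 4T1 overlapped with a difference of 0.13 (standard error 0.13).

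Lcn2 and Cp were already bright in the parental line. Lcn2, which encodes lipocalin 2, had 13.85, 14.00 and 14.07 in DR500, 13.58, 13.54 and 13.53 in MR20 and 13.30, 13.34 and 13.27 in 4T1. Small as they were, the differences exceeded the spread of the arrays, at 0.67 in DR500 (standard error 0.06, 1.59-fold) and 0.25 in MR20 (standard error 0.06, 1.19-fold). In 4T1 the Lcn2 value was above those of 99.7% of all genes, and whether its probes were near saturation was not tested. Cp, the copper-carrying ferroxidase ceruloplasmin, had 11.94, 12.09 and 12.11 in DR500, 10.95, 10.89 and 10.84 in MR20 and 11.997, 11.89 and 11.92 in 4T1. It was the only gene of the group that fell, by 1.04 in MR20 (standard error 0.06, 2.06-fold). In DR500 its arrays overlapped those of 4T1, with a difference of 0.11 (standard error 0.06). Serpina3n, a serine protease inhibitor, had 4.86, 4.82 and 4.67 in DR500, 4.73, 4.78 and 5.13 in MR20 and 4.72, 4.75 and 4.84 in 4T1, all under the receptor level. Its differences against 4T1 were 0.01 in DR500 and 0.11 in MR20 (standard error 0.10 for each), and the lines overlapped.

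Counted by an adjusted p under 0.05 in limma's fit over all genes, 8 of the 10 genes were higher in DR500 than in 4T1 and 0 were lower, 7 of the 8 by more than 2-fold. Over all genes, 20.2% were called higher and 21.3% lower in that comparison. That split of 4034 higher and 4239 lower genes became 6096 and 3773 after a repeated quantile normalization, and 5886 and 3601 with the arrays centred on their medians. In MR20, 4 genes (Steap4, Lbp, Saa3 and Lcn2) were higher than in 4T1 and 1 (Cp) was lower, where 15.4% of all genes were called higher and 17.1% lower. Between DR500 and MR20, 9 genes were higher in DR500 and 0 were lower, and 21.2% of all genes were called higher and 20.6% lower. With no adjustment, 0 members were lower in DR500 than in either line. The medians of the 10 log2 differences were 3.03 for DR500 against 4T1, 0.12 for MR20 against 4T1 and 1.99 for DR500 against MR20, and those of all genes were 0.07, -0.01 and 0.07. Since the genes were picked with these differences known, nothing is read from the counts. The comparisons share arrays: MR20 and DR500 were set against the same 4T1 arrays.

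The fold changes and their errors are drawn side by side for the 3 comparisons.

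**Figure D2:**
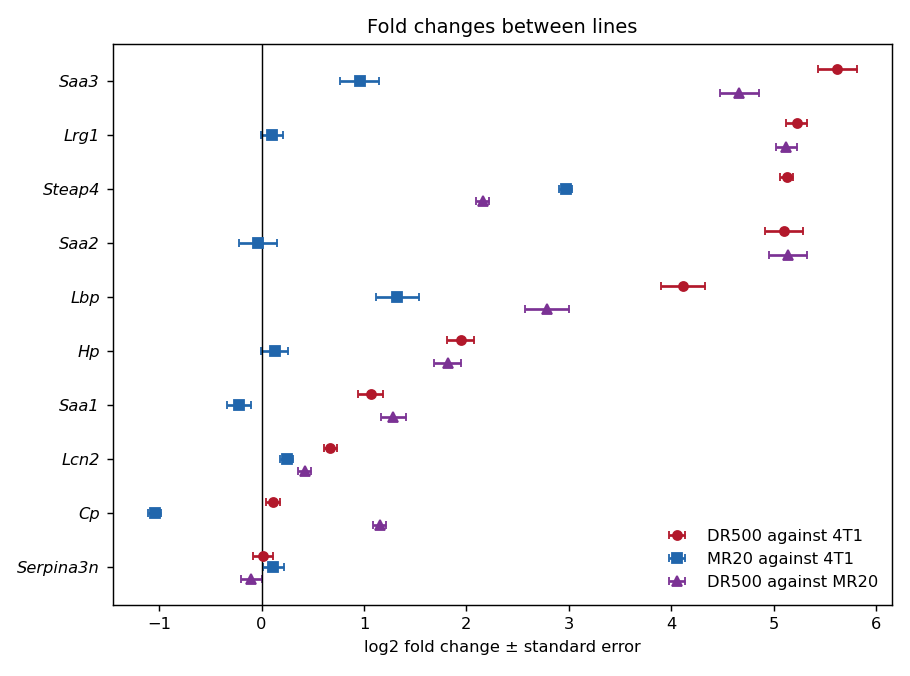
Log2 fold changes with standard errors from limma's fit over 9 arrays, for DR500 against 4T1 (circles), MR20 against 4T1 (squares) and DR500 against MR20 (triangles), with the genes ordered by the change in DR500 against 4T1. In the comparison of DR500 with 4T1, 5 genes lie above 4 on the log2 scale, whereas in that of MR20 with 4T1 Steap4 has the highest value (2.97) and Cp the lowest (-1.04).

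Within DR500 the arrays differed in the same direction for most of the genes. DR500 replicate 1 was the lowest of its line for 8 of the 10 genes, and replicate 3 the highest for 7. For all genes, replicate 1 was the lowest in 30.5% and the highest in 46.7%, and replicate 3 was the highest in 30.4%. The gap between replicate 1 and the next array was 0.60 for Saa3 and 0.59 for Saa2, and it was under 0.03 for Saa1, Lbp and Steap4. Without that array, the change in DR500 against 4T1 was 5.86 for Saa3 and 5.33 for Saa2. The array also had the highest receptor level of all 9, with a 95th percentile of 5.82, and its part in the lower values was not tested. In MR20, replicate 3 was the lowest array for 7 of the 10 genes, and for 32% of all genes.

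The profile over the 9 arrays was compared with that of every other gene whose line means differed by at least 2. Correlated with the mean of the members' standardised profiles, the 5 genes most alike among 429 candidates were Igfbp6 (Pearson's r 0.996), Tpm2 (0.996), Camk1d (0.995), Scara5 (0.994) and Mmp19 (0.994). The line means of Igfbp6, an insulin-like growth factor binding protein, were 9.58 in DR500, 7.10 in MR20 and 6.70 in 4T1. Those of Scara5, a ferritin receptor, were 10.1 in DR500, 6.52 in MR20 and 6.41 in 4T1. The 9 arrays form 3 lines, so these correlations describe the order of the lines more than any array, and they are given without p. Against the mean of the other 9 members, r was 0.988 for Lrg1, 0.987 for Saa3, 0.984 for Hp, 0.983 for Saa2, 0.948 for Lbp, 0.932 for Lcn2, 0.911 for Saa1 and 0.833 for Steap4, but 0.372 for Cp and -0.182 for Serpina3n.

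The array-by-array differences from the parental mean show this pattern for the members and for the 5 genes most alike.

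**Figure D3:**
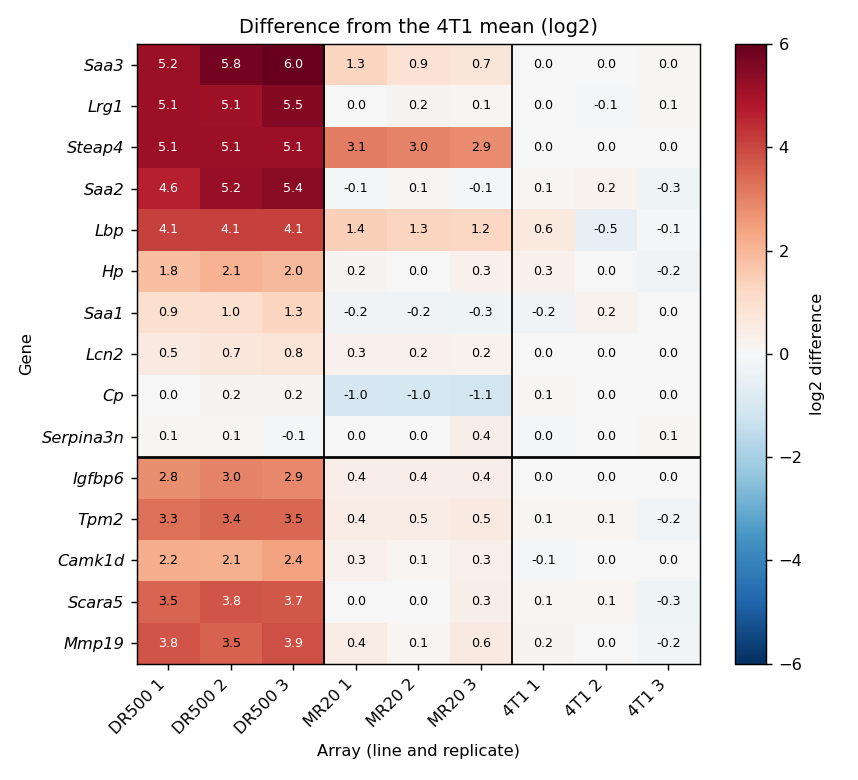
Difference of each array's log2 value from the mean of the 4T1 arrays, for the 10 acute phase protein genes (above the line) and the 5 genes with the most similar profiles (below it), with DR500, MR20 and 4T1 arrays from left to right. The 5 similar genes resemble Saa2 and Lrg1 in that DR500 stands apart, while Steap4 and Lbp are raised in MR20 too and Cp is lowered there.

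Of 17 measured genes that lie next to the members, 8 were called in DR500 against 4T1 and 1 changed by more than 2-fold (Hps3, beside Cp, by -1.04). In MR20 against 4T1, 7 flanking genes were called and 0 changed by more than 2-fold. These shares are near those of all genes, of which 20.2% were called higher and 21.3% lower in DR500 and 15.4% higher and 17.1% lower in MR20.

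Further genes of the response were counted from lists. Of 33 further positive acute phase proteins, 21 had a probe set of their own, and 9 of these rose and 0 fell in DR500, with a median difference of 0.26 on the log2 scale, where 20.2% of all genes were called higher and 21.3% lower. The 9 became 2 with dim genes filtered out and 14 after a repeated quantile normalization. The filter kept 9969 of the 19938 genes, and genes that it removed were not tested, so the 2 are not counted among all 21. Ptx3, a secreted pentraxin, rose by 1.69 (standard error 0.11), with 6.49, 6.50 and 6.84 in DR500, 5.05, 4.93 and 4.80 in MR20 and 5.02, 4.80 and 4.94 in 4T1. The orosomucoid genes Orm3 and Orm1, which encode alpha-1-acid glycoproteins, rose by 1.56 and 0.95 (standard errors 0.11 and 0.16), and Serping1, the C1 inhibitor, by 0.98 (standard error 0.12). DR500 lay above the other lines on every array for each of these 4 genes. The 4T1 means of Ptx3 (4.92), Orm3 (4.17) and Orm1 (5.16) were under the receptor level, which limits their differences to a description of dim signals. In MR20, 0 of the 21 genes rose and 2 fell, where 15.4% of all genes were called higher and 17.1% lower. The count of genes that rose was also 0 at an unadjusted p under 0.05 in limma, and 0 under each alternative. Those that fell were the metallothioneins Mt1, by 1.01 (standard error 0.06), and Mt2, by 0.30 (standard error 0.05). Of 6 negative acute phase proteins, whose production falls in the liver in inflammation, 1 was called in DR500 (Apoa1, higher by 0.45) and 0 in MR20 (also 0 at an unadjusted p under 0.05).

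Among the regulators upstream of these genes, 19 of 32 rose and 6 fell in DR500, against 20.2% higher and 21.3% lower over all genes. In MR20, 17 rose and 3 fell, against 15.4% and 17.1% over all genes. Of the ligands, Il1a, the interleukin 1 alpha gene, had 8.26, 8.35 and 8.62 in DR500, 12.65, 12.66 and 12.73 in MR20 and 11.81, 11.87 and 11.79 in 4T1. The selected lines thus went opposite ways, with a fall of 3.41 in DR500 and a rise of 0.86 in MR20 (standard error 0.09 for each). Il6, which encodes interleukin 6, had 4.57, 5.01 and 5.28 in DR500, 4.41, 4.29 and 4.35 in MR20 and 3.76, 3.55 and 3.70 in 4T1. It was called higher in DR500 (1.28, standard error 0.15) and in MR20 (0.68, standard error 0.15), with all values under the level of the receptor genes. Tnf, the tumor necrosis factor gene, rose by 0.79 in MR20 (standard error 0.09), and its difference in DR500 was -0.12 (standard error 0.09). The other genes called in DR500, beyond those named above and below, are given to complete the counts. Those that fell were the cytokine genes Il1b (by 0.89) and Lif (by 0.60) and the NF-kappaB subunit genes Rel (by 0.76) and Nfkb2 (by 0.28). Il1rap, a subunit of the interleukin 1 receptor, also fell (by 0.23). Those that rose included the tumor necrosis factor receptor genes Tnfrsf1b (by 1.39) and Tnfrsf1a (by 1.13). Bcl3 rose by 1.61, Nfkbiz by 0.42, the NF-kappaB subunit gene Relb by 0.17 and Socs1 by 0.58. In MR20, Tnfrsf1b, Bcl3, Nfkbiz and Socs1 rose by 0.49, 0.47, 0.62 and 0.32, and Tnfrsf1a and Relb had no call.

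The receptors that share gp130 differed between the lines. Lifr, the leukemia inhibitory factor receptor, had 10.67, 10.76 and 10.84 in DR500, 6.56, 6.46 and 6.11 in MR20 and 5.95, 5.86 and 6.15 in 4T1. It rose by 4.77 in DR500 (standard error 0.12, 27.3-fold) and by 0.39 in MR20 (standard error 0.12). Osmr, the oncostatin M receptor, had 11.56, 11.67 and 11.74 in DR500, 8.17, 7.98 and 8.0 in MR20 and 8.51, 8.48 and 8.52 in 4T1. It rose by 3.15 in DR500 (standard error 0.07) and fell by 0.45 in MR20 (standard error 0.07). Socs3, a feedback inhibitor of gp130 signaling that STAT3 induces, rose by 2.45 in DR500 (standard error 0.08) and differed by 0.07 in MR20 (standard error 0.08). Nfkbia, the inhibitor of NF-kappaB that NF-kappaB itself induces, rose by 0.86 in DR500 and by 0.62 in MR20 (standard error 0.06 for each). Other genes of this pathway were picked after their values were seen. Il6st (gp130), Stat3 and Cebpb rose by 0.96, 1.74 and 1.15 in DR500, and in MR20 they differed from 4T1 by 0.54, 0.25 and -0.11. Il6ra, the interleukin 6 receptor gene, rose by 0.32 in DR500 and fell by 0.61 in MR20. Jak1 and Jak2 rose by 0.94 and 0.39 in DR500 and by 0.39 and 0.45 in MR20. Cebpd rose by 0.87 in DR500 with no call in MR20, and Cebpa had no call in either line. Of the gp130 ligands besides Il6 and Lif, Il11 rose by 1.83 in DR500 and differed by -0.08 in MR20, and the differences of Osm were 0.17 in DR500 and 0.18 in MR20, with no call in either line. The activity of these proteins was not measured.

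Among 14 receptors and partners of the secreted proteins, 7 rose and 1 fell in DR500, where 20.2% of all genes were called higher and 21.3% lower. In MR20, 4 rose and 2 fell, against 15.4% and 17.1% over all genes. Cd14, which receives lipopolysaccharide from Lbp, and Tlr4, a receptor of lipopolysaccharide, rose by 0.67 and 0.64 in DR500 (standard error 0.08 for each). In MR20 Cd14 rose by 1.42 and Tlr4 fell by 0.48 (standard error 0.08 for each). Tlr2, a receptor of bacterial lipoproteins to which serum amyloid A also binds, rose by 0.52 in DR500 and by 0.76 in MR20 (standard error 0.06 for each). Pltp, a phospholipid transfer protein related to Lbp, rose by 1.20 in DR500 (standard error 0.06), and Eng, the endoglin gene, by 0.90 in DR500 and by 0.40 in MR20 (standard error 0.07 for each).

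Iron and copper genes were counted because Steap4, Cp, Lcn2 and Hp handle these metals or haem. Of 13 measured, 10 rose and 2 fell in DR500, against 20.2% higher and 21.3% lower over all genes, and 3 rose and 5 fell in MR20, against 15.4% and 17.1%. Both genes that fell in DR500 serve the export or uptake of iron by the cell. Slc40a1, the iron exporter ferroportin, had 5.05, 5.03 and 4.61 in DR500, 5.70, 5.50 and 5.53 in MR20 and 6.42, 6.42 and 6.68 in 4T1. That is a fall of 1.61 in DR500 and of 0.93 in MR20 (standard error 0.12 for each). Its mean was under the receptor level in DR500 (4.90) and just above it in MR20 (5.58), so background limits both falls. Tfrc, the transferrin receptor, fell by 1.01 in DR500 (standard error 0.06) and by 0.18 in MR20 (standard error 0.06). Heph, a ferroxidase related to Cp, rose by 1.03 in DR500 (standard error 0.09), with a 4T1 mean of 4.86 under the receptor level. Slc11a2, an importer of ferrous iron, rose by 0.56 in DR500 and by 0.55 in MR20 (standard error 0.05 for each). Steap3, a metalloreductase of the same family as Steap4, rose by 0.94 in DR500 and fell by 0.45 in MR20 (standard error 0.09 for each), and Steap2 fell by 0.50 in MR20 (standard error 0.06). These gene lists, like the members, were drawn up with results of these arrays known.

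The differences of all genes of these lists are plotted for both selected lines.

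**Figure D4:**
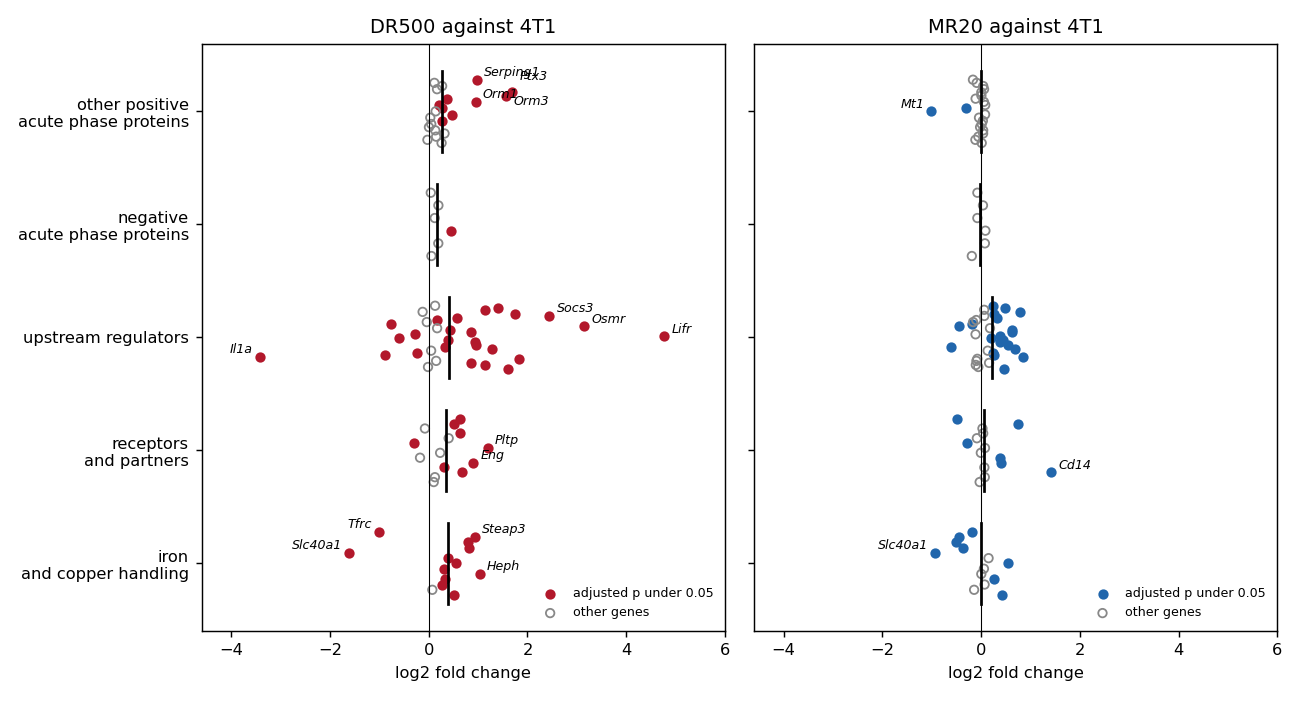
Log2 fold changes of single genes (points) in 5 lists, for DR500 against 4T1 (left) and MR20 against 4T1 (right). Filled points had an adjusted p under 0.05 in limma's fit over all genes, open points did not, vertical bars mark the list medians (for upstream regulators 0.41 in DR500 and 0.22 in MR20), and Lifr, Osmr and Socs3 lie farthest to the right in DR500 and Il1a farthest to the left.

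Because acute phase proteins are also made by hepatocytes and stored or made by leukocytes, markers of other cell types were examined beside them. For comparison with their counts, 20.2% of all genes were called higher and 21.3% lower in DR500. The shares in MR20 were 15.4% higher and 17.1% lower. Of 9 hepatocyte markers, only Apoa1 had a line mean above the receptor level in any line, and Alb, the albumin gene, had means of 4.50 in DR500, 4.39 in MR20 and 4.31 in 4T1. In DR500, 1 of the 9 was called higher, and in MR20 0 were (1 at an unadjusted p under 0.05 in limma). Their summed level was 8.16 to 8.36 in DR500, 8.0 to 8.13 in MR20 and 7.92 to 8.13 in 4T1 (log2 of the summed linear values). Of 12 neutrophil markers, 4 were higher and 0 lower in DR500, including Ly6g (by 2.51) and S100a8 (by 1.27), and 2 were higher in MR20, including Ltf (by 3.71), which encodes lactoferrin. Their summed level was 9.41 to 9.58 in DR500, 9.94 to 10.1 in MR20 and 8.73 to 8.89 in 4T1. Line means above the receptor level were found for 6 of the 12 in DR500, 5 in MR20 and 4 in 4T1. Among the granule genes, Mpo, Ngp and Mmp8 were under that level in every line. Elane (6.06 in DR500, 5.74 in MR20, 5.76 in 4T1) and Camp (6.05 in DR500, 5.78 in MR20, 5.87 in 4T1) were above it in every line. Ltf, the brightest of the 12 in MR20, had means of 6.38 in DR500, 9.17 in MR20 and 5.46 in 4T1, the last under that level. S100a9 was under it in every line (5.59 in DR500, 5.46 in MR20, 5.55 in 4T1). Of 12 macrophage and leukocyte markers, 3 were higher and 2 lower in DR500, with Cd53 higher by 4.35, Cd68 by 2.30 and Lcp1 lower by 4.79. In MR20, 2 were higher and 1 lower, with Cd68 higher by 1.23 and Cd53 by 0.95. Their summed level was 11.6 to 11.7 in DR500, 11.2 to 11.3 in MR20 and 11.0 to 11.1 in 4T1. This linear sum follows its brightest genes, which in DR500 were Cd68 (11.07) and Cd53 (9.17). The number of these markers with a line mean above the receptor level went the other way. It was 3 of the 12 in DR500, 5 in MR20 and 5 in 4T1. Ptprc, which encodes CD45, had line means of 5.24 in DR500, 5.18 in MR20 and 5.17 in 4T1, under the receptor level, and Adgre1 and Itgam were under it too.

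Epithelial and fibroblast markers differed between the same lines. Their counts stand beside 20.2% of all genes called higher and 21.3% lower in DR500, and 15.4% higher and 17.1% lower in MR20. Of 12 mammary epithelial markers, 9 were lower and 0 higher in DR500, with a median of -3.18. Those beyond 2-fold had log2 differences of -5.84 (Cldn4), -5.67 (Krt7), -5.46 (Esrp1), -4.19 (Epcam), -3.84 (Cdh1), -3.78 (Cldn7), -2.58 (Krt14) and -2.37 (Krt19). The keratin genes Krt8 and Krt18 stayed bright in DR500. Krt8 had line means of 13.43 in DR500, 13.60 in MR20 and 13.41 in 4T1, with no call in DR500. Krt18 had 12.63 in DR500, 13.20 in MR20 and 12.99 in 4T1, and was called lower in DR500 by 0.36. Krt5 and Elf3 had no call in DR500. Epcam had 6.91, 6.75 and 6.81 in DR500, 10.78, 10.85 and 10.89 in MR20 and 10.99, 11.02 and 11.02 in 4T1. In MR20, 5 were higher and 1 was lower, with Krt14 higher by 2.24. The summed level of these markers was 14.1 to 14.3 in DR500, 15.5 on every MR20 array and 15.3 on every 4T1 array. Among 11 fibroblast markers, 3 were higher and 1 lower in DR500, with Fbln1 higher by 3.70 and Pdgfra by 1.70 and Postn lower by 0.97. In MR20, 1 was higher (Postn, by 1.34) and 2 were lower. Their summed level was 12.2 to 12.3 in DR500, 9.91 to 9.96 in MR20 and 10.1 to 10.2 in 4T1. A linear sum follows its brightest genes, which in DR500 were Fbln1 (11.64) and Pdgfra (10.07), and 7 of the 11 had no call there. The median of the 11 markers was 6.02 to 6.38 in DR500, 6.50 to 6.72 in MR20 and 5.96 to 6.20 in 4T1. Of 7 adipocyte markers, 1 was higher in DR500 and 0 in MR20 (also 0 at an unadjusted p under 0.05 in limma). The part of these markers, or of a change in the mix of cells, in the members' values was not tested. In bulk RNA, a change in the number of cells that express a gene and one in the RNA per cell cannot be told apart.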

How the data were processed

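RNA of 9 cultures was measured on 1-colour whole-transcript arrays, with 3 arrays each of DR500, MR20 and 4T1 cells. The deposited values are log2 intensities that the authors made with the package affy by robust multi-array normalization, which corrects background, normalizes quantiles and gives 1 value per probe set. Their versions of affy and limma, and whether all arrays were normalized together, are not given in the sources used here. The number of arrays limits the precision, and no counts or depths apply.

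Of 35556 probe sets, 21789 listed 1 gene symbol, 1621 several and 12146 none. Symbols were updated through the Entrez identifier for 21698 of the 21789, and the brightest probe set stood for each of 19938 genes. All arrays entered a single fit with a mean per line (limma 3.58.1 with empirical Bayes moderation, R 4.3.3), with 6 residual degrees of freedom and Benjamini-Hochberg adjustment over the 19938 genes within each comparison. A gene was called at an adjusted p under 0.05. The fit was tested on simulated data first.

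The members and gene lists were chosen with earlier results of these data known. Besides the members, the text names the 4 called genes of each list with the largest change in DR500 and in MR20, markers called beyond 2-fold and the 5 genes most alike in profile, and it says where a gene was picked otherwise. Markers named at less than 2-fold or without a call were also picked after their values were seen. Alternatives were a fit of the compared lines alone, a filter on dim genes, repeated quantile normalization, median centring, the mean of a gene's probe sets, a test of all probe sets, a floor at the receptor gene level, a replicate block and leaving out each array. Promoter windows were taken from RefSeq (GRCm38.p6), reach 250 bases before and 50 after the start, and were aligned with Biopython 1.88. Protein sequences were not used here.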

Additional observations from a re-analysis of the deposited data

Results flagged for a closer look

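For 9 of the 10 genes the change against 4T1 differed between the selected lines, which is the comparison of DR500 with MR20 in limma's fit over all genes, at an adjusted p under 0.05. Of the 19938 genes, 21.2% were called higher and 20.6% lower in that comparison. The change in DR500 exceeded that in MR20 by 5.14 on the log2 scale for Saa2, 5.13 for Lrg1, 4.67 for Saa3, 2.79 for Lbp, 2.16 for Steap4, 1.82 for Hp, 1.29 for Saa1, 1.15 for Cp and 0.42 for Lcn2. For Cp the difference came with a lower value in MR20 and overlapping arrays in DR500 and 4T1. These 9 genes were picked with the differences known, and DR500 arrays cannot be told apart from a batch of their own.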

How the results depend on the processing

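The counts of members called kept within 1.5 times their value under every alternative that was run, at 7 to 9 higher in DR500 than in 4T1, 8 to 9 higher in DR500 than in MR20, and 3 to 4 higher and 1 lower in MR20 than in 4T1. Leaving out each array in turn gave 8 in DR500 against 4T1, 9 in DR500 against MR20, and 3 to 4 in MR20 against 4T1, where Lcn2 lost its call without 4T1 replicate 3 (0.23). Cp passed the threshold in DR500 against 4T1 after a repeated quantile normalization (0.17). Signs turned only for values that were not called. In MR20 against 4T1, Saa2 was 0.0047 with centred arrays and -0.18 to 0.064 with an array left out, and Hp was -0.0014 with a floor at the receptor level. With an array left out, Serpina3n ranged from -0.023 to 0.072 in DR500 against 4T1, from -0.0093 to 0.19 in MR20 against 4T1 and from -0.17 to 0.024 in DR500 against MR20. Saa1 and Serpina3n had no value with the dim genes filtered out or with the floor, and the floor brought Saa2 to 4.02 in DR500 against both other lines. Of the other positive acute phase proteins, 2 were higher in DR500 than in 4T1 with dim genes filtered out and 14 after repeated quantile normalization, against 9. Genes that the filter removed were not tested. The replicate numbers did not pair the arrays, since correlations of same-numbered arrays' deviations ran from -0.31 to 0.33. With the replicate block, 8 members were higher in DR500 than in 4T1, 4 in MR20 than in 4T1 and 9 in DR500 than in MR20, and the calls over all genes in DR500 against 4T1 were 3942 higher and 4152 lower. Low signal limits Saa1 and Serpina3n in all 3 lines, and Saa2 and Hp in MR20 and 4T1.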
